A study of Mus musculus with 12 samples.

Results

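The enzymes that make or remove sphingosine-1-phosphate (S1P) inside the cell were read on arrays of wild-type (WT) mice and of mice lacking one of them, the phosphatase gene Sgpp2. The members are all probe sets annotated to Sphk1, Sphk2, Sgpp1, Sgpp2 or Sgpl1 alone: 10 probe sets of 5 genes, among 45037 probe sets other than controls and 18193 named genes. All 10 passed the filter on low values, a log2 value above 5 on at least 3 arrays, as did 35426 probe sets in all. Sphk1, Sphk2 and Sgpl1 had 2 probe sets each, Sgpp1 had 3, and Sgpp2 had 1.

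S1P is a signalling lipid made from the backbone of ceramide. The sphingosine kinases Sphk1 and Sphk2 add a phosphate to sphingosine. The phosphatases Sgpp1 and Sgpp2, which sit in the endoplasmic reticulum, take it off again and return sphingosine to ceramide synthesis. Sgpl1, the S1P lyase of the same membrane, cleaves S1P for good, into a fatty aldehyde and phosphoethanolamine. In the pancreatic β-cell the pathway is known for its links to insulin release, cell survival and stress of the endoplasmic reticulum.

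RNA was measured on 12 arrays, 1 per sample, from C57BL6 mice in 4 groups of 3. The groups were WT on a normal diet, WT on a high-fat diet, Sgpp2-/- (KO) on a normal diet and KO on a high-fat diet. The labels give a deletion of Sgpp2 and name no Cre line, so no tissue restriction is known from them; the sources used here do not give age, sex, length of feeding or how many animals stand behind an array. Whether the arrays of a group are separate animals is likewise unstated, and the p-values measure only the spread among these samples, part of which may be technical. No tissue is labelled, while the title of the series speaks of pancreatic islets.

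The values are log2 RMA summaries. With 3 arrays a group their precision is limited, and a difference between 2 groups had a standard error (SE) of 0.13 for the median probe set. Islet hormones were bright on every array, with a mean of 14.57 for Ins2 and 14.40 for Gcg, beside the digestive enzyme gene Cpa1 of acinar cells at 13.97; the fat cell gene Adipoq averaged 3.53. The mean of 7 endothelial markers on the normal diet ran from 10.07 to 10.22 in WT and from 9.88 to 10.00 in KO. On the high-fat diet it ran from 10.19 to 10.30 in WT and from 9.99 to 10.13 in KO. Averaged over the diets 2 of the 7 fell in KO, as did 4.59% of all probe sets. The 7 acinar markers measured all had higher means in KO on the normal diet (mean list level from 12.84 to 13.17 in WT, 13.02 to 13.34 in KO, and on the high-fat diet 12.61 to 13.15 and 12.95 to 12.99), and none of them passed the test. The other lists of cell type markers varied too. Of 14 lists, the mean level of 4 (β, α, δ and endothelial) was lower on every KO than on every WT array of the normal diet, and that of T and NK cells was higher. Of all single probe sets tested, 31.3% had genotypes that did not overlap on that diet. The β list ran from 13.47 to 13.55 in WT and 13.38 to 13.46 in KO, the α list from 12.81 to 13.02 and 12.67 to 12.77, and the δ list from 11.98 to 12.11 and 11.78 to 11.93. The T and NK list ran from 5.45 to 5.47 and 5.54 to 5.82, values close to the filter. On the high-fat diet the endothelial list alone separated in this way, as did 16.8% of all single probe sets. Averaged over the diets 1 of 6 stromal markers rose, as did 3.8% of all probe sets. No β, α, δ or T and NK marker passed in that comparison, where 8.39% of all probe sets did. On component 1 of a principal component analysis, with 26.8% of the variance, WT high-fat array 2 scored 2.7 and the other WT arrays −9.9 or lower, while the KO arrays scored 5.0 or higher.

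**Figure D1:**
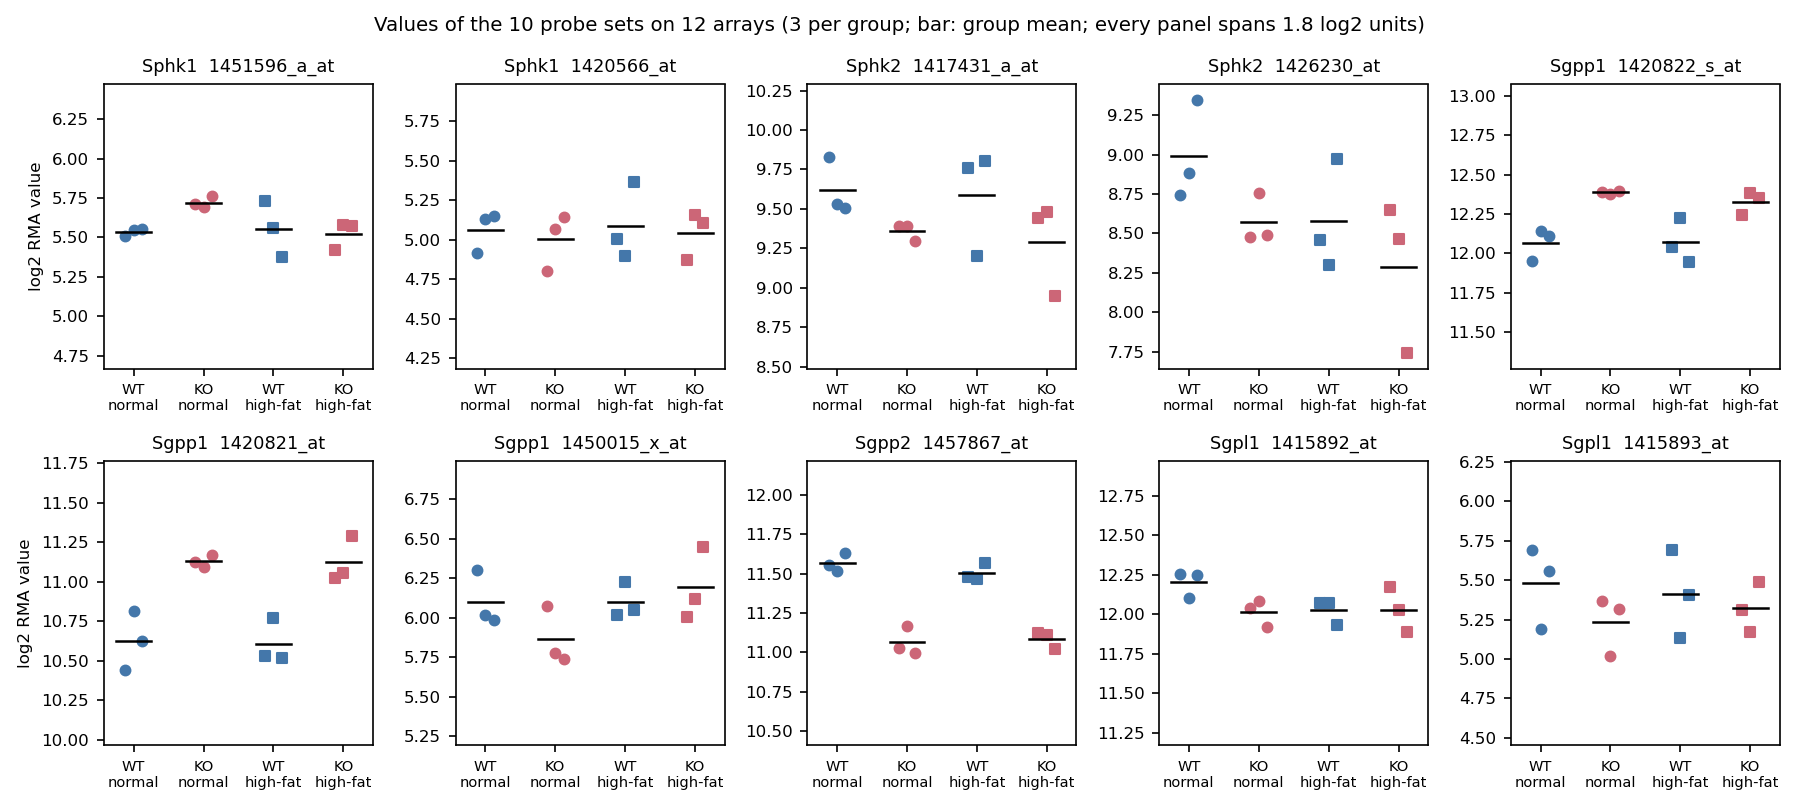
Log2 RMA values (vertical axes) of the 10 probe sets on all 12 arrays, grouped by genotype and diet (horizontal axes); points are arrays and bars are means of 3. The 6 KO arrays lie below the 6 WT arrays for Sgpp2 and above them for the Sgpp1 probe sets 1420821_at and 1420822_s_at.

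Loss of Sgpp2 was accompanied by a lower signal of Sgpp2 itself and a higher signal of the other S1P phosphatase gene, Sgpp1. Averaged over both diets the Sgpp2 probe set fell to 72.7% of its WT level, and the Sgpp1 probe sets 1420821_at and 1420822_s_at rose to 143% and 122%. The kinases and the lyase did not pass the test. In all, 3 of the 10 member probe sets changed in this comparison. Of all probe sets tested, 8.39% did (3.80% up and 4.59% down). The 3 member sets comprise that of Sgpp2, the gene that the labels give as deleted, and sets of the single gene Sgpp1. So this count, and those that follow for the members, cannot show whether the pathway changed more often than other probe sets. Rises made up 45.3% of all calls, 64.5% after cyclic loess and 72.2% after centring each array on its median; the Sgpp1 and Sgpp2 differences kept their signs under both. At an unadjusted p under 0.05 there were 4 of 10 members and 28.1% of all probe sets. The 6 KO and 6 WT arrays did not overlap for the same 3 members, nor for 5.46% of all probe sets.

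Sgpp2 is the gene that the labels give as deleted. Its probe set 1457867_at read 11.55, 11.51 and 11.63 on the WT normal arrays and 11.03, 11.17 and 11.00 on the KO normal arrays. Under high fat it read 11.48, 11.46 and 11.57 in WT and 11.12, 11.11 and 11.02 in KO. No KO array reached the lowest WT array, on either diet. The difference averaged over diets was −0.46 on the log2 scale (SE 0.06, 95% interval −0.58 to −0.34, adjusted p = 0.00252). With genotype permuted within each diet the exact two-sided permutation p was 0.005, the smallest that the 400 arrangements can give. An Sgpp2 signal well above the filter remained in KO. The sources used here do not say whether its probes lie inside the deleted part, so the probe set cannot serve as a check of the labels.

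On the normal diet alone Sgpp2 fell by 0.50 (SE 0.08, adjusted p = 0.0218), the only member of 10 that passed there, where 1.34% of all probe sets did. At an unadjusted p under 0.05 there were 3 members and 21% of all probe sets, and 6 members, against 31.3% of all, had groups that did not overlap. The Sgpp2 call was lost without any of 5 arrays: without WT normal array 1 or 3 the adjusted p was 0.093 and 0.0915, and without KO normal array 1, 2 or 3 it was 0.0518, 0.0569 and 0.0973 (range over alternatives 0.00705 to 0.0973). Fitted on the 6 arrays compared alone it had an adjusted p of 0.061. Among the high-fat arrays Sgpp2 differed by −0.42 (SE 0.08, adjusted p = 0.062). With WT high-fat array 2 left out the difference was −0.44 (adjusted p = 0.0387), where 2.57% of all probe sets passed. Over the alternatives its adjusted p ran from 0.0264 to 0.296. No member passed on the high-fat diet as fitted, where 0.271% of all probe sets did with limma; 3 of the 10 had an unadjusted p under 0.05, against 14.8% of all probe sets, and 3 had groups that did not overlap, against 16.8%. The genotype differences on the separate diets differed from each other by 0.08 (95% interval −0.16 to 0.33, adjusted p = 1 for the interaction).

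Sgpp1 encodes the other phosphatase of the same reaction and lies on chromosome 12, whereas Sgpp2 lies on chromosome 1. Its probe set 1420821_at read 10.44, 10.81 and 10.62 on the WT normal arrays and 11.12, 11.09 and 11.17 on the KO normal arrays. Under high fat the WT arrays read 10.53, 10.77 and 10.52 and the KO arrays 11.03, 11.06 and 11.29. Every KO array lay above every WT array, the closest being KO high-fat array 1 and WT normal array 2. Averaged over the diets the probe set rose by 0.51 (SE 0.08, 95% interval 0.33 to 0.69, adjusted p = 0.00573), and the call held under all 19 alternatives that could be run on it, with adjusted p between 0.0017 and 0.0182. Among all probe sets tested, 2.68% rose without overlap between the 6 KO and 6 WT arrays.

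The second Sgpp1 probe set, 1420822_s_at, gave the same order. It read 11.96, 12.14 and 12.11 on the WT normal arrays against 12.39, 12.38 and 12.40 on the KO normal arrays, and 12.04, 12.23 and 11.95 against 12.24, 12.38 and 12.35 on the high-fat diet. The groups again did not overlap, although KO high-fat array 1 lay only just above WT high-fat array 2. The rise averaged 0.29 (SE 0.07, 95% interval 0.14 to 0.43, adjusted p = 0.0234). This call was lost when WT normal array 1, KO normal array 3 or either of WT high-fat arrays 1 and 3 was left out, with an adjusted p of 0.0629, 0.0563, 0.0515 and 0.054 (range over alternatives 0.00543 to 0.0629). Affymetrix uses the ending s for sets whose probes match transcripts of more than 1 gene or variant, and the ending x for sets that may bind unrelated transcripts.

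The remaining Sgpp1 probe set, 1450015_x_at, did not pass. It read 6.30, 6.02 and 5.98 in WT and 6.08, 5.78 and 5.74 in KO on the normal diet, and 6.02, 6.22 and 6.05 in WT and 6.01, 6.12 and 6.45 in KO on the high-fat diet. These values lay not far above the filter, and the genotypes overlapped on both diets. Its difference averaged −0.07 (95% interval −0.29 to 0.14, adjusted p = 0.671). The mean over all 3 Sgpp1 probe sets differed by 0.24 (adjusted p = 0.056), so Sgpp1 did not pass when its 3 sets were averaged. Read 1 diet at a time, 1420821_at differed by 0.50 (SE 0.12, adjusted p = 0.0558) on the normal and 0.52 (SE 0.12, adjusted p = 0.0787) on the high-fat diet. Without WT high-fat array 2 both passed, with adjusted p of 0.0476 and 0.0356 (ranges over alternatives 0.0299 to 0.209 and 0.0356 to 0.296). The share of all probe sets that passed also rose without that array, to 1.75% and 2.57% from 1.34% and 0.271%. For 1420822_s_at the differences were 0.32 (adjusted p = 0.0973) and 0.25 (adjusted p = 0.233).

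No dependence of the Sgpp1 difference on diet was detected: the interaction was 0.01 (95% interval −0.34 to 0.37) for 1420821_at and −0.06 (95% interval −0.35 to 0.22) for 1420822_s_at, with an adjusted p of 1 for each. These intervals still allow the genotype difference to vary between diets by up to 0.37 and 0.35 in size. Arrays of whole tissue cannot tell fewer cells of a type from less RNA per cell, here or in the other comparisons. Of the marker lists given above, the endothelial list separated the genotypes on both diets. The β, α, δ and T and NK lists did so on the normal diet only, and the acinar list overlapped on both diets. The part of cell type content in the Sgpp1 and Sgpp2 differences was not tested.

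**Figure D2:**
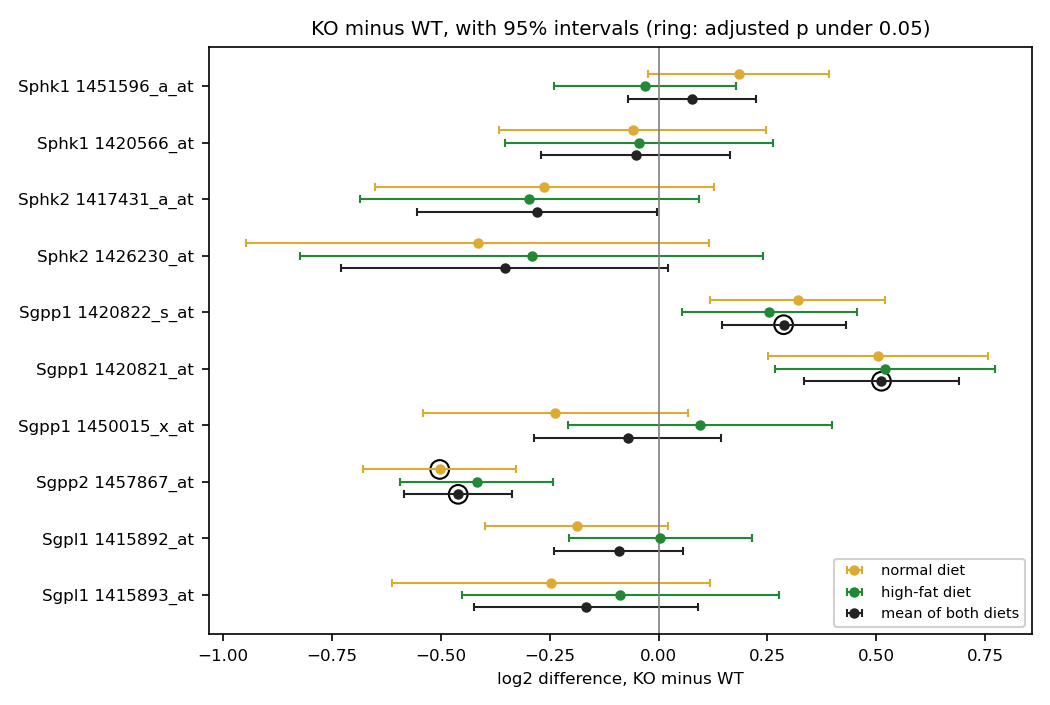
Log2 differences KO minus WT (horizontal axis) of the 10 probe sets on the normal diet, on the high-fat diet and averaged over both, with 95% intervals; rings mark adjusted p under 0.05. Sgpp2 lies below 0 and the Sgpp1 probe sets 1420821_at and 1420822_s_at above 0 in all 3 comparisons.

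The sequences before the start sites of the phosphatase genes are shown because these 2 genes are the members that changed, in opposite directions. They are the 250 bases upstream of the RefSeq start of each gene, written 5′ to 3′ on the gene's strand, from GRCm38.p6: Sgpp1 at chr12:75735730-75735979 on the minus strand and Sgpp2 at chr1:78310096-78310345 on the plus strand. Capitals mark matches, on either strand, to the motifs named after the sequences.
Sgpp1: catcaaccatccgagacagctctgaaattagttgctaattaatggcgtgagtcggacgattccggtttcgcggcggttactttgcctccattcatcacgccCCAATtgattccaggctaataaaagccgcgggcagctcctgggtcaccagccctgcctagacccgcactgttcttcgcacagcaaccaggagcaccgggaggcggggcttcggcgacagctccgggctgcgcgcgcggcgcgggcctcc
Sgpp2: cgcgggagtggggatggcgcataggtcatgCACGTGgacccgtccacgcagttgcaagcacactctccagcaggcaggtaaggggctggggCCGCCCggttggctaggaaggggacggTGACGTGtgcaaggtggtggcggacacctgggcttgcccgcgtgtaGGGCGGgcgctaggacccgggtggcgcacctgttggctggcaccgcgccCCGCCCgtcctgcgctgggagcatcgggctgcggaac

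In all 6 motifs were searched. The GC box was taken as GGGCGG, which 32.7% of all 32851 windows of this length held on either strand. The E-box was taken as CACGTG (6.02% of windows), the CCAAT box by those 5 letters (33.8%) and the TATA box as TATAAA (12.4%). The cAMP response element was taken as TGACGTCA (1.55%). The core of the element bound by ATF6 and XBP1 in the unfolded protein response was taken as TGACGTG (1.65%). No motif contains another. The Sgpp1 window held 1 match, to the CCAAT box, starting 149 bases before the start site. The Sgpp2 window held the GC box at 3 places and the E-box at 1. It also held the ATF6 and XBP1 core once, 132 bases before the start site. The windows had no motif of the 6 in common. These letters describe the reference sequence, and the arrays measured no binding.

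The kinases were read by 2 probe sets each. Sphk2, the kinase found in the nucleus and mitochondria as well as the cytosol, read 9.83, 9.53 and 9.51 on the WT normal arrays for 1417431_a_at and 9.39, 9.39 and 9.30 on the KO normal arrays. Under high fat it read 9.76, 9.20 and 9.81 in WT and 9.44, 9.48 and 8.95 in KO. The normal-diet groups did not overlap, as was the case for 31.3% of all probe sets, whereas WT high-fat array 2 lay below 2 of the 3 KO arrays of its diet. The mean difference over diets was −0.28 (SE 0.13, unadjusted p = 0.0472, adjusted p = 0.173). Leaving out WT high-fat array 2, which of the WT arrays lay nearest to the KO arrays on component 1, it was −0.38 with an adjusted p of 0.0413. This was the only 1 of 21 alternatives in which it passed (range of adjusted p 0.0413 to 0.336). Without that array 14.3% of all probe sets passed, against 8.39% with every array kept, so no weight rests on this call.

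The second Sphk2 probe set, 1426230_at, spread more. It read 8.74, 8.88 and 9.35 in WT and 8.48, 8.76 and 8.49 in KO on the normal diet, and 8.46, 8.30 and 8.97 in WT and 8.65, 8.46 and 7.74 in KO on the high-fat diet. KO high-fat array 3 was the lowest array for both Sphk2 probe sets and had the highest score on component 1, 32.5. The difference averaged −0.35 (SE 0.17, 95% interval −0.73 to 0.02, adjusted p = 0.203). The 95% intervals place the KO level of Sphk2 between 68.1% and 99.7% of WT by 1417431_a_at and between 60.3% and 102% by 1426230_at.

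Sphk1, the cytosolic kinase that moves to the plasma membrane when growth factors act, lay close to the filter. Its probe set 1451596_a_at ran from 5.38 to 5.76 over the 12 arrays and the group means of 1420566_at lay between 5.0 and 5.09. For 1451596_a_at the KO normal arrays, at 5.71, 5.69 and 5.76, lay above the WT normal arrays, at 5.51, 5.54 and 5.56. Genotypes failed to overlap on that diet for 31.3% of all probe sets. The high-fat arrays overlapped, with 5.73, 5.56 and 5.38 in WT and 5.42, 5.58 and 5.57 in KO. The differences were 0.18 (SE 0.10, adjusted p = 0.29) and −0.03 (SE 0.10, adjusted p = 0.901). For 1420566_at the mean difference was −0.05 (95% interval −0.27 to 0.17), and its sign turned after centring each array on its median. Values this near the lower end of the scale understate differences, so the arrays say little about Sphk1 in either direction.

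Sgpl1, the lyase and the only exit from the pathway, was read by 2 probe sets, of which 1 lay near the filter. The other, 1415892_at, read 12.26, 12.11 and 12.25 on the WT normal arrays and 12.04, 12.09 and 11.92 on the KO normal arrays. Under high fat WT read 12.07, 12.07 and 11.93 and KO 12.18, 12.03 and 11.89. The WT normal arrays thus stood above each of the KO normal and WT high-fat arrays, while the high-fat groups overlapped. Of all probe sets, 31.3% had genotypes that did not overlap on the normal diet, and 15.7% had diets that did not overlap in WT. The KO difference was −0.19 (SE 0.10, adjusted p = 0.285) on the normal diet and 0.00 (SE 0.10, adjusted p = 0.988) on the high-fat diet. Averaged over diets it was −0.09 (95% interval −0.24 to 0.06), which places the KO level between 84.7% and 104% of WT. The interaction was 0.19 (SE 0.14, 95% interval −0.10 to 0.49, adjusted p = 1). The probe set near the filter, 1415893_at, ran from 5.02 to 5.69 over the arrays and, averaged over diets, differed by −0.17 (95% interval −0.42 to 0.09).

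The diet comparison asks whether a high-fat diet alone moved these enzymes. In limma's test, 0 of 10 member probe sets changed with diet in WT, in KO or on average, against 0.0508%, 0% and 0.178% of all probe sets; at an unadjusted p under 0.05 there were 0, 1 and 0 members, against 11.2%, 8.4% and 13.9% of all. Averaged over genotypes the 6 arrays of each diet overlapped for all 10 members and failed to overlap for 1.03% of all probe sets. Sgpp2 differed by −0.06 in WT (95% interval −0.24 to 0.11) and 0.02 in KO (95% interval −0.15 to 0.20). Sgpp1 1420821_at differed by −0.02 in WT (95% interval −0.27 to 0.23) and 0.00 in KO (95% interval −0.26 to 0.25), and 1420822_s_at by 0.00 (95% interval −0.20 to 0.20) and −0.06 (95% interval −0.26 to 0.14). For these 3 probe sets the diet intervals leave out a change of the size that genotype gave to 1420821_at.

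Larger estimates came from other probe sets, none of which passed. Sphk2 1426230_at was lower on the high-fat diet in both genotypes, by −0.41 in WT and −0.29 in KO, with a mean of −0.35 (95% interval −0.73 to 0.02, adjusted p = 0.394). Sgpl1 1415892_at differed by −0.18 in WT (adjusted p = 0.536), its 3 arrays on each diet not overlapping, as was so for 15.7% of all probe sets. Sphk1 1451596_a_at differed by −0.20 in KO (adjusted p = 0.623), again without overlap, as was so for 13.3%. The Sgpp1 set 1450015_x_at differed by 0.33 in KO (unadjusted p = 0.0361, adjusted p = 0.555). No interaction between genotype and diet passed for a member, or for any of the 35426 probe sets (0%); 0 members and 4.99% of all probe sets had an unadjusted p under 0.05. The largest interaction estimates were 0.33 for 1450015_x_at (95% interval −0.10 to 0.76) and −0.21 for Sphk1 1451596_a_at (95% interval −0.51 to 0.08).

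**Figure D3:**
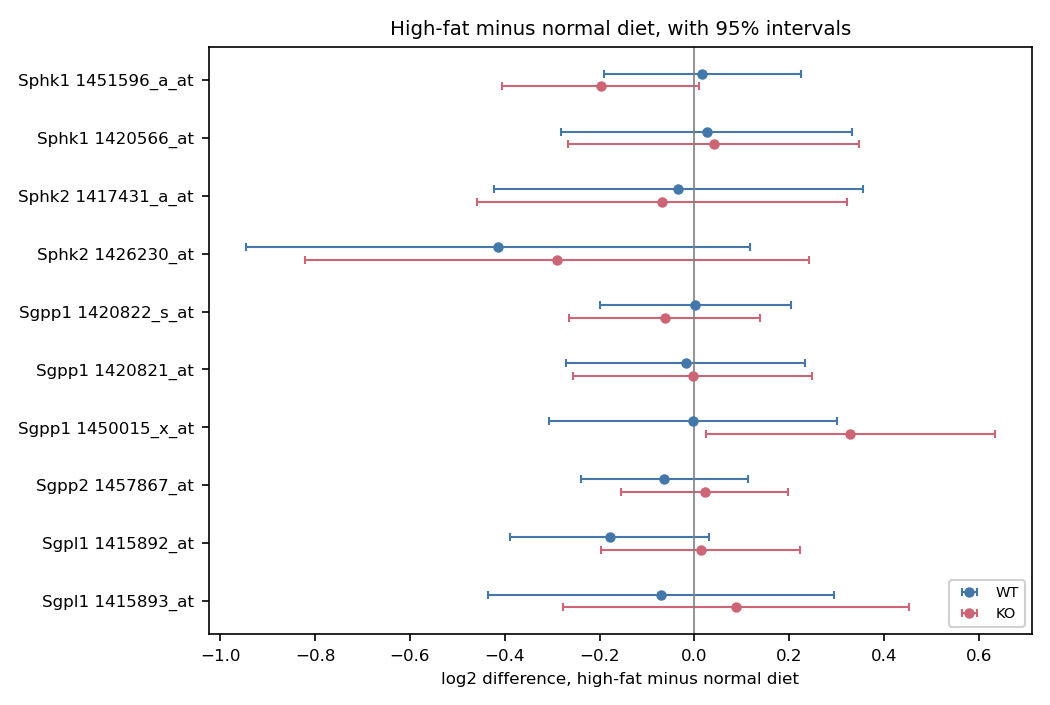
Log2 differences high-fat minus normal diet (horizontal axis) of the 10 probe sets in WT and in KO, with 95% intervals. The interval of Sgpp1 1450015_x_at in KO is the one that leaves out 0, and no probe set passed after adjustment.

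Around these enzymes, 52 further genes of sphingolipid metabolism and S1P signalling were read from a list by class; 42 of them had at least 1 probe set tested, 86 in all. Averaged over both diets, 3 of the 86 probe sets rose in KO and 7 fell, in 9 genes. That is 11.6%, against 8.39% of all probe sets, and the median difference of the list was −0.03, against −0.04 over all probe sets. On the normal diet alone 2 fell (2.33%, against 1.34% of all); none passed with only the groups compared, nor when WT normal array 1 or 3 or KO normal array 1 or 3 was left out. There was 1 call without WT normal array 2, KO normal array 2, KO high-fat array 2 or either of WT high-fat arrays 1 and 3, and there were 3 without KO high-fat array 3. Leaving out WT high-fat array 2 raised it to 4, with 1.75% of all probe sets called. On high fat 0 of 86 passed in limma's test, against 0.271% of all, with 12 (14%) at an unadjusted p under 0.05, against 14.8% of all. Without WT high-fat array 2 there were 2 calls, with 2.57% of all probe sets called.

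Of the 3 lipid phosphate phosphatase genes, whose products remove the phosphate from S1P at the cell surface, Plpp3 fell on average by 0.35 (SE 0.07, adjusted p = 0.0179). Its probe set 1448908_at read 9.67, 9.49 and 9.65 on the WT and 9.06, 9.19 and 9.06 on the KO normal arrays. These did not overlap, as was so for 31.3% of all probe sets. The genotypes overlapped under high fat, with 9.49, 9.45 and 9.27 in WT and 9.40, 9.10 and 9.11 in KO. Its other probe set differed by −0.07 (adjusted p = 0.542). Plpp3 is abundant in endothelium, and the endothelial marker levels above were lower on the same arrays; their part was not tested.

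Etnk1, an ethanolamine kinase that forms phosphoethanolamine apart from the lyase, fell by 0.33 on 1454633_at (adjusted p = 0.0202). Its 4 other probe sets, between −0.06 and 0.23, did not pass. Mfsd2b, the S1P exporter of red cells and platelets, fell by 0.30 on 1457933_at (adjusted p = 0.0311), while its other probe set differed by 0.09. The Mfsd2b call was the only 1 among 12 probe sets tested of S1P receptors, exporters and carrier (8.33%, against 8.39% of all probe sets). No tested probe set of the receptor genes passed, and that of S1pr5 lay under the filter and was not tested.

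In ceramide synthesis, which feeds the pathway, 2 of 23 probe sets rose and 3 fell, where 3.80% of all probe sets rose and 4.59% fell. Sptlc2, a subunit of serine palmitoyltransferase, which starts the route, fell on 1460243_at by 0.30 (adjusted p = 0.0249) and on 1435937_at by 0.25 (adjusted p = 0.0457), while its other probe set differed by 0.13. Sptlc1, the partner subunit, rose by 0.72 on 1436727_x_at (SE 0.11, adjusted p = 0.00547), a set of the x kind; its 3 other probe sets differed by 0.02 to 0.14 and did not pass. Fa2h, the fatty acid 2-hydroxylase, fell by 0.43 on average (adjusted p = 0.0425) and by 0.89 on the normal diet (adjusted p = 0.0347). Its levels were 6.31, 5.79 and 6.08 on the WT normal arrays against 4.97 to 5.55 on the KO normal arrays, and between 5.14 and 5.39 on all 6 high-fat arrays. The normal-diet groups did not overlap, as was so for 31.3% of all probe sets.

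Degs1, the desaturase that makes ceramide from dihydroceramide, rose by 0.21 on 1423346_at (adjusted p = 0.0367), with its other probe set at −0.13 (adjusted p = 0.299). Acer2, an alkaline ceramidase that releases sphingosine, the substrate of the kinases, rose by 0.37 on 1421496_at (SE 0.08, adjusted p = 0.0225); its other probe set differed by 0.34 (adjusted p = 0.0849). Gba2, a glucosylceramidase outside the lysosome, fell by 0.34 on 1434271_at (adjusted p = 0.0389), with its other probe set at −0.10 (adjusted p = 0.375).

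The count for the list depended on single arrays. It was 2 without KO normal array 3, 3 without WT normal array 1, WT normal array 3 or WT high-fat array 1, and, with WT high-fat array 3 left out, 4. Leaving out KO normal array 2 or KO high-fat array 3 gave 5, and leaving out KO high-fat array 1 gave 6. Leaving out WT high-fat array 2 gave 16. The share called among all probe sets moved with it, from 3.47% without WT normal array 1 to 14.3% without WT high-fat array 2. After cyclic loess 7 of 86 passed (7.01% of all probe sets), and 6 after centring each array on its median (7.81%). The choice of probe sets mattered as well: 4 genes passed when each was read by its probe set with the highest mean, where 6.32% of all genes did, and 1 when its probe sets were averaged, where 4.15% did. With diet 0 of 86 passed in limma's test in WT, in KO or on average, against 0.0508%, 0% and 0.178% of all probe sets. At an unadjusted p under 0.05 there were 12.8%, 9.3% and 17.4% of the 86, against 11.2%, 8.4% and 13.9% of all.

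**Figure D4:**
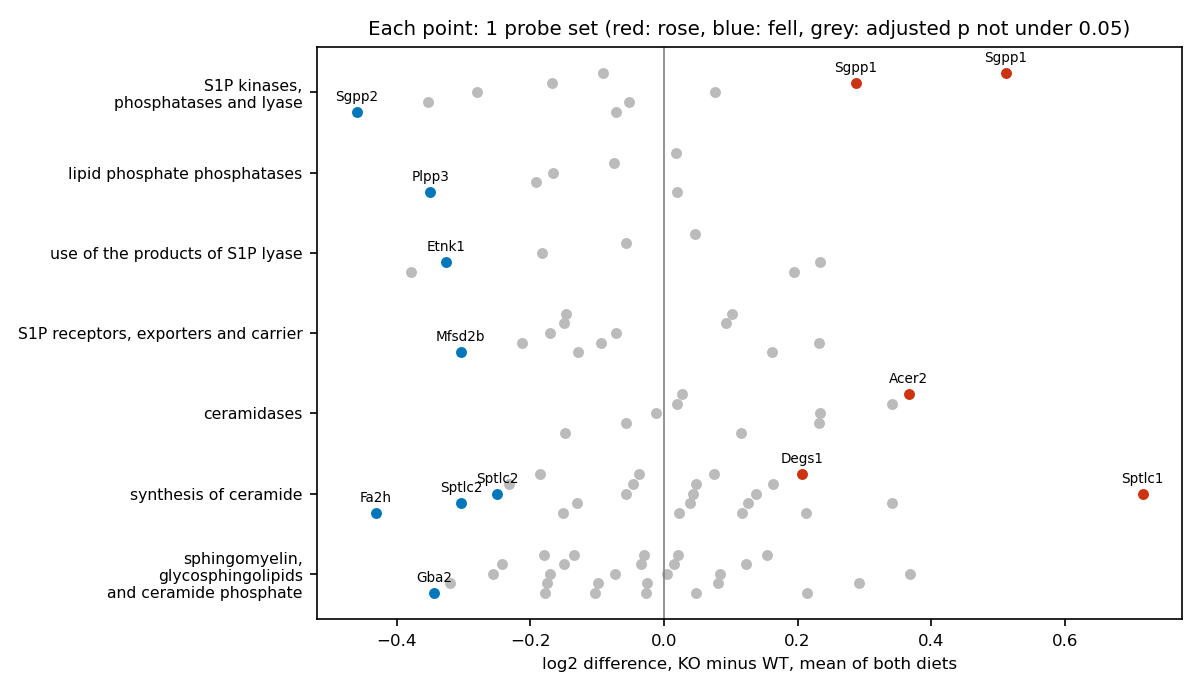
Log2 differences KO minus WT averaged over both diets (horizontal axis) for the 10 member probe sets and the 86 probe sets of the wider pathway, by class; the vertical offset within a class has no meaning. Sgpp1 rose on 2 probe sets and Sgpp2 fell, beside 3 rises and 7 falls in the wider pathway.

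The genes whose levels ran most like each member were taken over the 12 arrays from 15238 genes, each at its probe set with the highest mean, as a description without a test; the arrays share their normalisation and the genotype groups. For Sgpp1 they were Ppp1cb, a catalytic subunit of protein phosphatase 1 (Pearson r = 0.99), Khsrp (0.98) and Matr3 (0.98). Their likeness remained in the deviations from the group means, at 0.97, 0.91 and 0.97. Sgpp1 was read here by 1420822_s_at, of the s kind, and Ppp1cb and Khsrp by sets of the x kind. Binding of these sets to other transcripts was not tested. The genes nearest to Sgpp2 were Auh (0.96), Chd4 (0.95) and D2hgdh (0.95), which like Sgpp2 lies on chromosome 1. In the deviations from the group means they stood at 0.69, 0.48 and 0.29. Once group means were taken out, likeness was thus lower for the genes nearest to Sgpp2. Sphk2 ran with Atg4b of chromosome 1 (0.98), Fam207a (0.98) and Trappc12 (0.98), at 0.972, 0.978 and 0.971 in the deviations. Sgpl1 ran with Map4 (0.95), Haghl (0.94) and Tmem53 (0.92), at 0.911, 0.915 and 0.905 in the deviations. The nearest for Sphk1 were Psg18 (0.91), Gm12863 (0.88) and Chrng of chromosome 1 (0.87), at 0.867, 0.853 and 0.749 in the deviations. The Sphk1 values used here ran only from 5.38 to 5.76, close to the filter, so its likeness says little about the gene.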

How the data were processed

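Per the labels' protocols, Trizol-extracted RNA (4 µg) was turned into biotin-labelled cRNA. The authors deposited log2 RMA values, 1 per probe set and array; per the submitters' processing notes these came from RMA in a workflow naming Partek 6.6, whose settings the sources used here do not give. Outside the control probe sets the log2 values ran from 2.6 to 15.0. RMA equalises the arrays' distributions, so a shift of most genes would be hidden.

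Probe sets were named through the platform annotation (34945 with 1 symbol, 932 with several, 9160 not listed), of which 34741 matched the reference table by Entrez identifier. Promoters are from RefSeq, and all 5 genes matched. A model with a mean for each group was fitted to the 12 arrays with limma 3.58.1 (R 4.3.3; 8 residual degrees of freedom, 11.6 after moderation) over 35426 probe sets; the moderated test was two-sided, with Benjamini-Hochberg adjustment over all of them and a threshold of 0.05. Intervals are at 95%. Members and lists were chosen with earlier results of these data known. Every member probe set is reported; from the pathway list those past the threshold are named. Likeness is the 3 highest Pearson correlations. Alternatives covered the filter, scaling, probe set choice, samples in the fit, replicate blocks, the variance prior and each array left out. Figures used matplotlib 3.10.9 in Python 3.11.15.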

Additional observations from a re-analysis of the deposited data

How the results depend on the processing

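The Sgpp2 fall and the Sgpp1 1420821_at rise averaged over diets passed under every alternative run for them. Averaged over diets, 3 member probe sets were called, 1 with probe sets averaged by gene (5 genes tested) and between 2 and 4 with an array left out. Beside them 8.39% of all probe sets, 4.15% of all genes and 3.47% to 14.3% of all probe sets were called. On the normal diet the count was 1 as reported, 2 with the filter at 6 or median centring and 3 with a variance trend. It was 0 with only the groups compared or a fixed replicate block, and from 0 to 2 with an array left out. The share of all probe sets called there was 1.34% as reported, 2.19% with the filter at 6, 1.7% with median centring and 2.62% with the trend. With only the groups compared it was 0.0932%, with the fixed block 0.494%, and with an array left out 0.0368% to 1.75%. On the high-fat diet the member count was 0, then 1 with the filter at 6, 2 with the trend, and from 0 to 2 with an array left out. The share of all probe sets was 0.271%, 0.492%, 1% and 0.0311% to 2.57% in the same order. The causes were not tested.

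Replicate numbers did not establish pairs. Deviations of same-numbered arrays across diets correlated with r = 0.257, 0.26 and 0.061 in KO and 0.182, 0.181 and −0.073 in WT. Numbers 1 and 2 correlated best with their own number in both genotypes, and number 3 in neither. With the number as a fixed block (paired) 175 probe sets were called on the normal diet against 476, and 2016 against 2972 on average. Sgpp2 on the normal diet then had an adjusted p of 0.0506. The random block within genotype, at a correlation of 0.231, gave 1465 on average. It gave 4 pathway probe sets against 10 (6 with the fixed block) and, for diet, 1 against 0. For diet it called 478 of all probe sets against 63 on average, 123 against 18 in WT, and 0 in KO. Rises on the normal diet were 53.2% of calls, 75.6% after cyclic loess and 80.7% after median centring; on the high-fat diet they were 37.5%, 47.1% and 58.7%. Calls over all probe sets numbered 33 on the normal and 2 on the high-fat diet with only the groups compared, and 128, 4 and 963 with 1 probe set per gene. With an array left out they ran from 13 to 620, 11 to 908 and 1226 to 5074 (normal, high-fat, average).

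Of 982 values recomputed for 48 named member results, 37 changed sign, 0 of them past the threshold in either setting. The remaining member results, all of diet or interaction, are not in these counts. Among those, the Sphk1 1420566_at interaction changed sign in 8 of 18 alternatives and that of Sphk2 1417431_a_at in 6 of 21. Of the 48, those that changed sign after cyclic loess were Sgpl1 1415892_at on the high-fat diet (−0.0018) and the Sgpp1 1420821_at interaction (−0.0071). After median centring they were Sphk1 1420566_at on the normal diet (0.0054) and on average (0.0017), Sphk1 1451596_a_at on the high-fat diet (0.0114), the diet differences of Sgpp1 1420822_s_at in WT (−0.0009) and Sgpp2 in KO (−0.0037), and the Sgpp1 1420821_at interaction (−0.0075). With probe sets averaged by gene they were Sgpl1 on the high-fat diet (−0.0417) and Sgpp1 for the diet in WT (−0.0063), in KO (0.0876) and the interaction (0.0939). With an array left out, values that changed sign ranged as follows. The KO differences on the high-fat diet ran from −0.0685 to 0.0768 and from −0.2261 to 0.0525 for Sgpl1 1415892_at and 1415893_at, from −0.0342 to 0.1883 for Sgpp1 1450015_x_at, and from −0.1403 to 0.0938 and −0.1193 to 0.0558 for Sphk1 1420566_at and 1451596_a_at. Sphk1 1420566_at also ran from −0.1345 to 0.0425 on the normal diet and −0.0997 to 0.0173 on average. The diet differences ran from −0.1109 to 0.0755 in WT and −0.0865 to 0.0459 in KO for Sgpp1 1420821_at, from −0.0751 to 0.0644 in WT for 1420822_s_at, and from −0.013 to 0.0736 in KO for Sgpp2. The interactions ran from −0.0791 to 0.1073 and −0.1272 to 0.0123 for the Sgpp1 sets. Signal near the filter limits Sphk1 and the dim sets of Sgpp1 and Sgpl1.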
